A study of Mus musculus with 6 samples.

Results

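The data concern 9 genes of granulosa cell fate, Foxl2, Irx1, Irx2, Irx3, Irx5, Cyp19a1, Runx1, Msx1 and Msx2, measured in testes that lack Arid4b in Sertoli cells. They were taken by gene symbol, whatever their values, and are 9 of the 22320 genes in the authors' table. Poly(A) RNA of whole testes was sequenced from hybrid C57BL6/J and 129/SvEv mice at postnatal day 1.5, in 3 pools of 4 testes per group. The Arid4bSCKO mice were Arid4b-/Flox with Amh-cre, and the Control mice were Arid4b+/Flox with Amh-cre. All mice therefore carried a floxed Arid4b allele and Cre under the Amh promoter, a promoter of Sertoli cells. The mutants also carried a null allele in every cell. ARID4B is a chromatin protein of the Sin3 corepressor complex.

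Sertoli cells of the testis and granulosa cells of the ovary arise from the same supporting cell precursors. SOX9 and DMRT1 hold the Sertoli fate. FOXL2, Wnt4 and Rspo1 signalling and RUNX1 act on the granulosa side, and mature supporting cells of either kind can acquire features of the other when such factors are lost. No ovary was measured in the data used here, so there is no sample showing the level that granulosa cells would give. Some of the 9 genes are also expressed by cells other than granulosa cells, which is given below for Cyp19a1 and Runx1 only. For none of the 9 was the cell source of the reads tested.

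No member passed either test. By the read levels defined below, 1 lay at or below the floor in both groups and 4 more were low in both. The other members were low in 1 group (2) or in neither (2). The authors' false discovery rate (FDR) was below 0.05 for 0 of the 9 genes, against 0.26% of all 22320 genes. A test with the variance moderated over genes (limma, Benjamini-Hochberg adjustment over 19095 genes) also called 0 of 9, against 13.8% of all genes tested (6.46% lower and 7.37% higher in Arid4bSCKO) and 4.03% of the genes at levels from 1 to 6, where all 9 lie. At an unadjusted p below 0.05, the authors' test called 1 member, Cyp19a1, against 24.1% of all genes and 11.3% of those at levels from 1 to 6. The moderated test called 0 without adjustment. The point estimates were higher in Arid4bSCKO for 3 members and lower for 6, and their median difference was -0.24 on the log2 scale, beside -0.04 over all genes tested.

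The authors' values are group means of log2(normalized count + 1). For most genes, the normalized counts behind them could be written as whole reads times a fixed worth per library. For 89.0% of the genes up to a level of 13, a single set of 6 read numbers gave both the deposited means and the deposited p-value. All 9 members were among these genes, so their reads in each library could be written out. For 2282 of the 21348 genes up to that level, no set of whole reads was found. In Arid4bSCKO a read counted as 1.280, 1.304 and 1.453 normalized counts, and in Control as 1.201, 1.232 and 1.253. The 6 libraries are called A, B and C within each group in that order, which cannot be tied to the replicate numbers of the samples. The genes solved in this way held 9716684 to 10837061 reads per Arid4bSCKO library and 11136465 to 11621065 per Control library. The floor used here is 3 reads in each library, a group mean of 2.33 in Arid4bSCKO and 2.23 in Control. A level is called low up to 10 reads in each library, which is 3.85 and 3.73.

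The targeted gene was reduced in every mutant library. Arid4b stood at 417, 356 and 462 normalized counts in Arid4bSCKO libraries A to C and at 1184, 1154 and 1170 in the Control libraries, a difference of -1.51 log2 (95% interval -1.82 to -1.21, authors' FDR 0.0535, moderated adjusted p 2.2e-05 with limma). The whole testis was sequenced, so RNA of other cells, which keep a floxed allele, is part of the level that was left. In whole tissue, fewer cells of a type and less RNA per cell cannot be told apart, here or for any gene below. The labels do not say whether the pools came from separate litters, so the spread behind each p-value is that of these pools and may be technical.

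By the level of 3 reads, Irx5 lay at or below the floor in both groups. Foxl2, Irx1, Cyp19a1 and Msx1 were low in both groups, and Irx2 and Irx3 were low in Arid4bSCKO only. Runx1 and Msx2 were above the low range in both. Levels per kilobase of transcript were taken from the group means, turned back from log2 to normalized counts. They lie below a plain average of the libraries. Msx2 (10.2 normalized counts per kb) and Runx1 (9.56) stood highest, followed by Irx2 (5.92), Msx1 (5.45), Irx3 (4.90), Cyp19a1 (3.14), Irx1 (2.20), Foxl2 (1.73) and Irx5 (1.04). Between neighbours in this order the ranges over the 6 libraries overlapped in every case, so the order among neighbours is not firmer than the libraries' spread. The highest of these levels, that of Msx2, lay at the 30.4th percentile of the 19982 genes with a matched length.

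**Figure D1:**
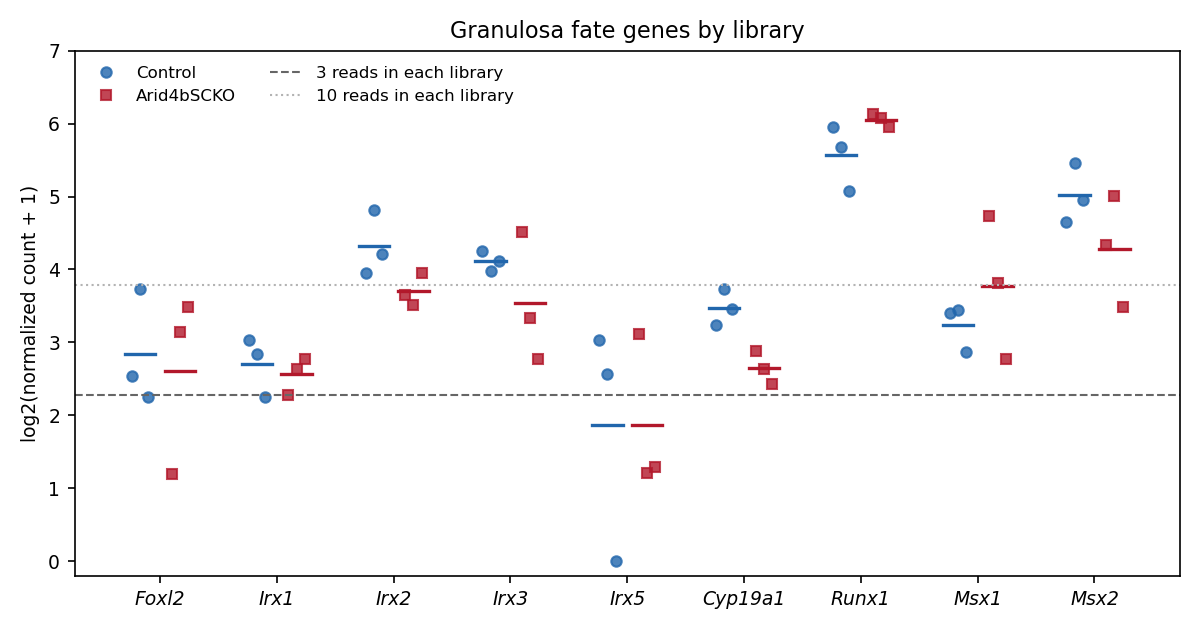
Normalized counts of the 9 genes in each of the 6 libraries, on a log axis with 1 added; the points are libraries and the short bars are group means on the log2 scale. Cyp19a1 is the only member whose 3 Arid4bSCKO values all lie on one side of its 3 Control values, and the values of Irx5 reach down to 0.

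FOXL2 is the forkhead transcription factor that keeps granulosa cells from turning into Sertoli-like cells, and its gene is a standard marker of granulosa fate. Foxl2 (chr9:98955607-98958126, plus strand, mm10) had 1, 6 and 7 reads in Arid4bSCKO libraries A to C, or 1.28, 7.82 and 10.2 normalized counts. The Control libraries had 4, 10 and 3 reads, or 4.80, 12.3 and 3.76 normalized counts. The highest value was in a Control library and the lowest in a mutant one, and the groups overlapped between these ends. The group means were 2.60 and 2.84 log2, a difference of -0.24 (95% interval -2.59 to 2.11, authors' FDR 0.898, moderated adjusted p 0.859 with limma). The interval reaches from 0.166 to 4.33 times the Control level, on the scale of normalized count + 1. Only a rise or a fall beyond these ends lies outside it. The sign is not firm either: the authors' ratio of medians was 0.60 where the means gave -0.24, and leaving out mutant library A, which had a single read, gave 0.47.

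The region just before Foxl2 is shown because it takes up most of the gap between this gene and Foxl2os, a transcript on the opposite strand whose nearest end lies 0.297 kb away. These are the 250 bases upstream of the Foxl2 start in RefSeq (GRCm38.p6), 5′ to 3′ on the gene's strand.
Foxl2, chr9:98955357-98955606, plus strand: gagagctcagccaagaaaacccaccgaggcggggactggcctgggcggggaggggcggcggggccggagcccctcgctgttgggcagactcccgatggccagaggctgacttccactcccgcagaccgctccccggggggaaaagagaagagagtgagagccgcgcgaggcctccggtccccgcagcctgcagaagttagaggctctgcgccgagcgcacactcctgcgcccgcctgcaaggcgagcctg
The window has 70.8% G and C and 22 CG pairs. Neither strand holds AGGTCA (a nuclear receptor site), TGTTTA (forkhead core), TGACG (cAMP response element core) or TGTGGT (RUNX core), so no letters are in capitals. These letters occur, on either strand, in 14.03%, 12.03%, 17.75% and 14.04% of the 32817 upstream windows of this length.

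Foxl2os gave a second reading next to Foxl2. It had 9, 3 and 7 reads in Arid4bSCKO libraries A to C and 5, 14 and 3 in Control, with group means of 3.14 and 3.08 log2 and a difference of 0.06 (95% interval -1.93 to 2.05). Its highest library was Control B, as for Foxl2, and its groups overlapped. Whether the authors' counting used strand is not given in the sources used here. Foxl2 and Foxl2os do not overlap in the table.

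The Iroquois genes encode homeodomain transcription factors in linked clusters. Irx3 and Irx5 are expressed in granulosa cells and are needed there for the contact between granulosa cells and oocytes. Irx3 (chr8:91798511-91801654, minus strand) had 21.8, 9.13 and 5.81 normalized counts in Arid4bSCKO from 17, 7 and 4 reads, and 18.0, 14.8 and 16.3 in Control from 15, 12 and 13 reads. The mutant libraries spread on both sides of the tight Control values, and the difference of -0.57 log2 had an interval from -2.01 to 0.86 (authors' FDR 0.583). Irx5 (chr8:92357796-92361456, plus strand) had 6, 1 and 1 reads in Arid4bSCKO and 6, 4 and 0 in Control. Both group means were 1.87 log2, under the floor, so no fold is given. The 0 in Control library C allows up to 3 reads, by counting error only.

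Irx1 and Irx2 lie in the other cluster. Irx1 (chr13:71958232-71963723, minus strand) had 3, 4 and 4 reads in Arid4bSCKO and 6, 5 and 3 in Control, or 3.84, 5.22 and 5.81 against 7.21, 6.16 and 3.76 normalized counts. Its libraries interleaved, and the difference was -0.15 log2 (95% interval -0.92 to 0.62, authors' FDR 0.780). Counting error alone is wider than this: 11 reads in all against 14 gave a ratio of 0.858 with an exact interval from 0.353 to 2.04. Irx1 changed sign when differences were centred on a trend over level (0.026) and without Control library A (0.015). Irx2 (chr13:72628978-72634194, plus strand) had 11.5, 10.4 and 14.5 normalized counts in Arid4bSCKO and 14.4, 27.1 and 17.5 in Control, from 9, 8 and 10 reads against 12, 22 and 14. Only mutant library C and Control library A overlapped, by 14.5 against 14.4, and the difference was -0.62 log2 (95% interval -1.42 to 0.18, authors' FDR 0.332, moderated adjusted p 0.303 with limma). For Irx2, a rise beyond 1.13-fold of Control, on the scale of normalized count + 1, lies outside the interval.

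The 2 Iroquois genes outside the 9 were as sparse. Irx4, next to Irx2, had 6, 1 and 5 reads in Arid4bSCKO and 7, 9 and 5 in Control, a difference of -0.77 log2 (95% interval -2.61 to 1.06). Irx6 had 0, 1 and 1 reads against 3, 3 and 1 and lay under the floor in both groups. Crnde, 1.676 kb from Irx5 on the opposite strand, had 7, 5 and 4 reads against 5, 8 and 8, a difference of -0.24 log2. None of the 3 passed either test.

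Cyp19a1 encodes aromatase, which makes oestrogen from androgen. It is a main product of granulosa cells and is also made by immature Sertoli cells. Cyp19a1 (chr9:54165937-54268164, minus strand) had 5, 4 and 3 reads in Arid4bSCKO libraries A to C and 7, 10 and 8 in Control. In normalized counts these were 6.40, 5.22 and 4.36 against 8.41, 12.3 and 10.03. All 3 mutant libraries lay below all 3 Control libraries, as was so for no other member. Groups that do not overlap were found for 34.5% of the 16588 genes with whole reads, and for 19.8% of those at levels from 1 to 6. The exact two-sided permutation test over the libraries gave p = 0.1, the smallest that 3 against 3 allows.

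For Cyp19a1 the difference was -0.83 log2 (95% interval -1.38 to -0.28), which is 56.3% of Control on the scale of normalized count + 1. The log2 ratio of mean normalized counts, with nothing added, was -0.94. The authors' unadjusted p was 0.0138 and their FDR 0.146. The moderated test gave an unadjusted p of 0.0818 and an adjusted p of 0.236 (limma). The values of Cyp19a1 varied little between pools, with an SD of 0.24 log2 where genes at levels from 3 to 5 had a median SD of 0.49, and the moderated test draws such an SD towards that of its level. Counting error alone is wide here: 12 reads in all against 25 gave a ratio of 0.524 with an exact interval from 0.240 to 1.08. No setting of the moderated test called Cyp19a1, the smallest adjusted p being 0.0801, without the trend and the robust fitting.

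The 3 upstream windows of Cyp19a1 are shown because its row in the table joins reads from all its alternative starts, and the values cannot say which start was used. Each is the 250 bases before a RefSeq start (GRCm38.p6), 5′ to 3′ on the gene's strand, with motif matches in capitals.
Cyp19a1 start 1, chr9:54268165-54268414, minus strand: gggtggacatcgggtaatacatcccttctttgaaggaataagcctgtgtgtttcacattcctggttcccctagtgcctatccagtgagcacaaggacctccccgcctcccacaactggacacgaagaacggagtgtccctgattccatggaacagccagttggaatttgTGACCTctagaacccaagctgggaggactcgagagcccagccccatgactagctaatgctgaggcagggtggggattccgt
Cyp19a1 start 2, chr9:54228915-54229164, minus strand: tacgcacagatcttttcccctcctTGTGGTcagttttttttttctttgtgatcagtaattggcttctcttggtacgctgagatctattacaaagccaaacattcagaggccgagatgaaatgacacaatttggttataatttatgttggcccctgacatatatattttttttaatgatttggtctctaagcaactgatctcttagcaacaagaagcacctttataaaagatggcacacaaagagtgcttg
Cyp19a1 start 3, chr9:54193744-54193993, minus strand: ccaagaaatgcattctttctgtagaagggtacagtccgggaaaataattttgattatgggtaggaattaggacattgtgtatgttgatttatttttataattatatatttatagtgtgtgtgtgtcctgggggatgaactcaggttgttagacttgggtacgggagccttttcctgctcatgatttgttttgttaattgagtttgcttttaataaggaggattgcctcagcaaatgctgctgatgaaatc
The first window holds AGGTCA on the opposite strand, printed as TGACCT, the second holds the RUNX core TGTGGT, and the third holds none of the letters searched. Their G and C content is 54.4%, 37.2% and 36.8%, well under that of the Foxl2 window. A match is a description of the letters and not a site in use.

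RUNX1 is a transcription factor of early granulosa cells, where it acts beside FOXL2, and also of blood cell precursors. Runx1 (chr16:92601466-92826074, minus strand) was the best measured of the 9 genes, with 54, 51 and 42 reads in Arid4bSCKO and 51, 41 and 26 in Control. In normalized counts it stood at 69.1, 66.5 and 61.0 against 61.2, 50.5 and 32.6. The lowest mutant and the highest Control library met at 61.0 and 61.2, and the Control libraries spread more than the mutant ones. The difference was 0.48 log2 (95% interval -0.26 to 1.23, authors' FDR 0.391, moderated adjusted p 0.255 with limma), or 140% of Control on the scale of normalized count + 1. Counting error alone would give a ratio of 1.36 (1.06 to 1.75), an interval above 1 that does not include the spread between pools.

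Macrophage markers moved with the groups beside Runx1. Of 16 macrophage and leukocyte markers, 13 were called higher in Arid4bSCKO and 0 lower, among them C1qa (1.20 log2), Mrc1 (0.52) and Itgam (1.84). Among the 14 of them with whole reads, which alone allow a library to be left out, 13 were called with all libraries, 6 without Control A and 5 without Control B. Without the trend and robust fitting, 2 of 16 were called. Their summed level over those 14 was 4334 to 6322 normalized counts in Arid4bSCKO and 2665 to 3093 in Control, and none was at 0. Of 8 markers of blood precursors, platelets and mast cells, 2 were called higher, Pf4 and Cpa3 (both 1.31), and 0 lower. The other 6 had negative differences that were not called, from -0.46 for Gp9 to -0.04 for Mpo, and the median of the 8 was -0.16. Their sum was 730 to 933 against 499 to 574. Called were 81.25% of the macrophage list and 25% of the blood list, beside 13.8% of all genes tested. The part of either list in the Runx1 values was not tested.

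The other RUNX genes were read beside Runx1. Runx2, the factor of bone-forming cells, had 29, 27 and 17 reads in Arid4bSCKO and 13, 15 and 19 in Control. Its groups did not overlap, as for 19.8% of genes with whole reads at levels from 1 to 6. The difference was 0.71 log2 (95% interval 0.03 to 1.40, moderated adjusted p 0.158 with limma). Runx3, a factor of lymphocytes and sensory neurons, had 36, 30 and 12 reads against 54, 56 and 40, also without overlap, a difference of -0.92 log2 (-2.14 to 0.30, adjusted p 0.103 with limma, 0.0308 to 0.285 over the alternatives). Cbfb, the partner that RUNX proteins bind DNA with, differed by -0.04 log2. Differences between the RUNX genes were not tested.

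MSX1 and MSX2 are homeodomain factors that respond to BMP signals and act in the fetal ovary, where germ cells enter meiosis. Msx1 (chr5:37820491-37824585, minus strand) had 20, 10 and 4 reads in Arid4bSCKO and 8, 8 and 5 in Control, or 25.6, 13.04 and 5.81 against 9.61, 9.85 and 6.27 normalized counts. The mutant group held both the highest and the lowest value. The difference was 0.54 log2 (95% interval -1.12 to 2.20, authors' FDR 0.626) and fell to 0.05 when one library was left out. Msx2 (chr13:53466881-53472780, minus strand) had 19.2, 31.3 and 10.2 normalized counts from 15, 24 and 7 reads, against 24.0, 43.1 and 30.1 from 20, 35 and 24. Mutant libraries A and C were below every Control library, and mutant library B was above all but Control library B. Its difference was -0.74 log2 (-2.14 to 0.65, authors' FDR 0.479, moderated adjusted p 0.260 with limma). Msx3 was under the floor in both groups, with 4, 1 and 1 reads against 3, 1 and 1.

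**Figure D2:**
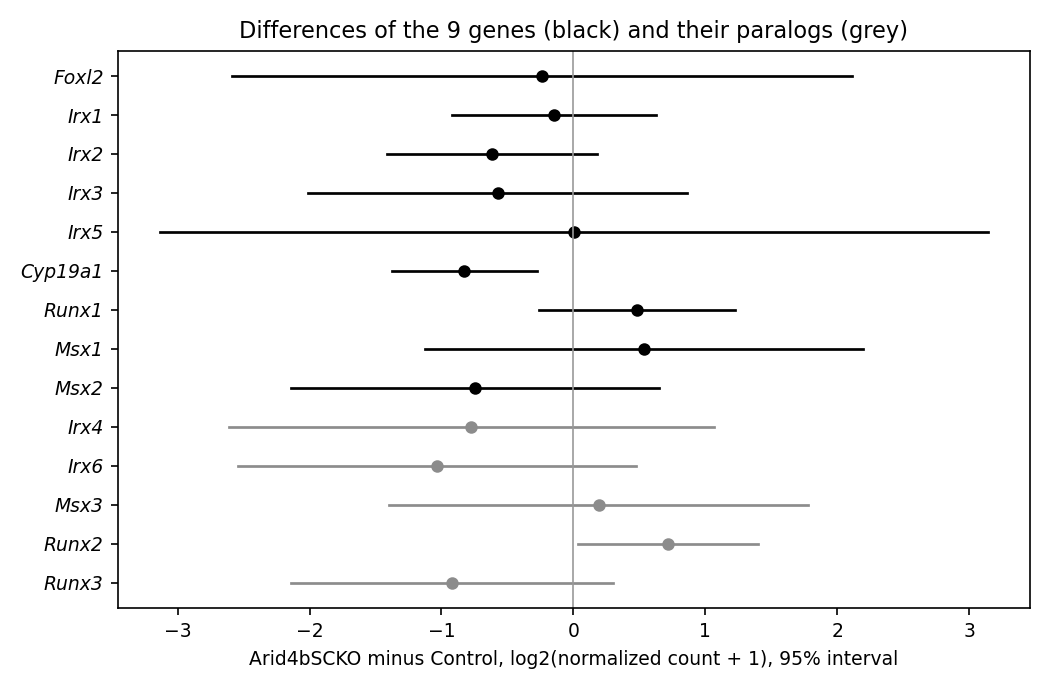
Differences of the 9 genes (black) and of Irx4, Irx6, Msx3, Runx2 and Runx3 (grey). They are Arid4bSCKO less Control on the log2(normalized count + 1) scale, with 95% intervals from the deposited p-values. The interval of Cyp19a1 (-1.38 to -0.28) lies below 0, and those of Foxl2 and Irx5 span several log2 units in both directions. Among the grey genes, that of Runx2 (0.03 to 1.40) lies above 0.

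The BMP pathway upstream of the MSX genes was measured through 18 genes, among them 3 ligands (Bmp2, Bmp4 and Bmp7, the first also in the ovarian list below), receptors and response genes, with 16 of them at the minimum level for the test. Of these, 0 were called higher and 3 lower, the receptor gene Bmpr2 (-0.34 log2) and the inhibitory Smad genes Smad6 (-0.70) and Smad7 (-0.64). The median difference was -0.19, and 18.75% of the 16 were called, beside 13.8% of all genes tested. The lower calls were 1 without Control A, 2 without mutant library C or Control C, and 0 without the trend and robust fitting. Meiotic entry genes, 12 in number, had 1 call: Stra8, which retinoic acid induces as germ cells enter meiosis, stood at 160, 399 and 324 normalized counts in Arid4bSCKO and at 91.3, 83.7 and 158 in Control. Its difference was 1.36 log2 (95% interval 0.00 to 2.71, moderated adjusted p 0.0422 with limma), and the call was lost in 5 of 13 alternatives, leaving out mutant library B (0.0856), mutant library C (0.114), Control A (0.152) or Control B (0.113) among them. Sycp3 (-0.24) and Spo11 (-0.66), which act later in meiosis, were not called. The 1 call is 8.33% of the 12 genes.

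How far these levels can be read is set by the spread between pools. Genes at levels from 1 to 3 had a median SD of 0.81 log2 and a median 95% interval of 1.85 to either side, or 3.59-fold, and 1.59% of them were called by the moderated test. From 3 to 5 the interval was 1.10 log2 to either side (2.15-fold) with 4.26% called, and from 5 to 7 it was 0.68 (1.598-fold) with 10.5% called. At levels from 9 to 11, where 19.1% of genes were called, it was 0.27 (1.20-fold). Of the members, Irx1, Irx2 and Cyp19a1 varied less between pools than the median gene at their level, and the other 6 varied more.

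**Figure D3:**
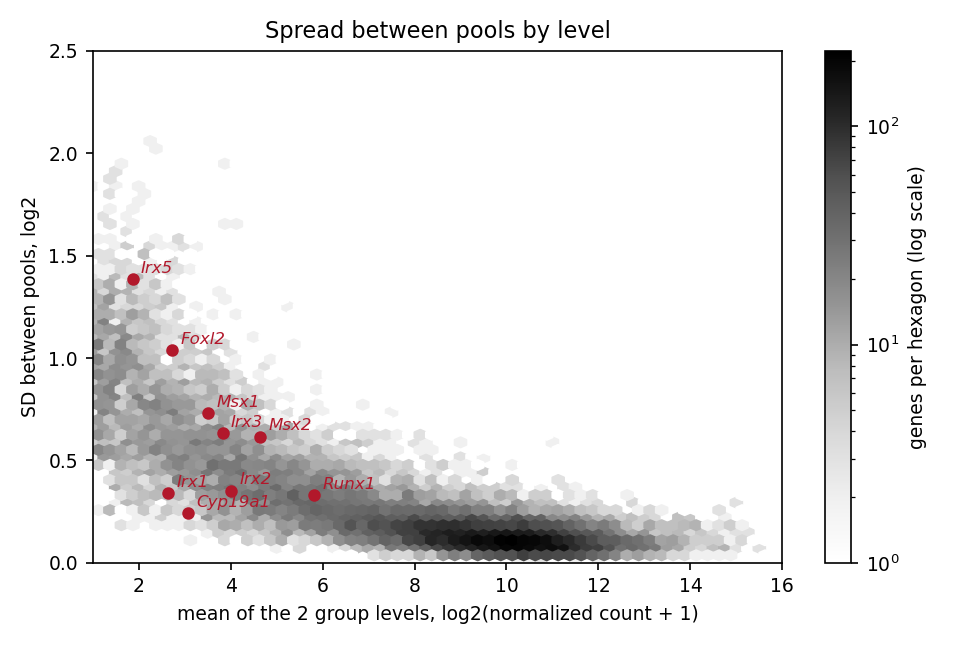
SD between pools against mean level for all genes tested, with the 9 genes marked. The median SD falls from 0.81 log2 at levels from 1 to 3 to 0.12 at levels from 9 to 11, and all 9 genes lie on the left side, where it is largest.

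Other genes of granulosa and ovarian fate mostly stood at higher levels and had more calls. Of 25 such genes, 1 was called higher and 10 lower, with a median difference of -0.43 log2. These calls are 44% of the list, beside 13.8% of all genes tested and 19.1% of those at levels from 9 to 11. The ligand genes Wnt4 and Rspo1 of early ovarian fate, and Fst, were not called. Wnt4 differed by 0.07 (95% interval -0.38 to 0.52), Rspo1 by 0.28 (-0.30 to 0.87) and Fst, which encodes follistatin, by 0.01 (-0.59 to 0.61). For Wnt4, a rise beyond 1.44-fold lies outside the interval. The single higher gene was Lgr5, a receptor for R-spondins that marks precursors of granulosa cells at the ovarian surface and stem cells in other tissues. Lgr5 stood at 188, 250 and 292 normalized counts in Arid4bSCKO and at 74.5, 98.5 and 52.6 in Control, a difference of 1.70 log2 (0.82 to 2.59, moderated adjusted p 0.00151 with limma). All 3 mutant libraries were above all 3 Control libraries. Groups without overlap, in either direction, were found for 34.5% of the genes with whole reads.

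The 10 lower genes were Ctnnb1, Esr2, Amhr2, Kitl, Foxo1, Hsd17b1, Inha, Inhba, Inhbb and Gja1, of which Ctnnb1, Kitl, Inha, Inhbb and Gja1 are named after their values were seen. At least Kitl, Inha, Inhbb, Gja1 and Amhr2 are also made by Sertoli cells. The cell source of the other lower genes was not tested. Hsd17b1 stood at 3983, 4001 and 4273 normalized counts in the Control testes, where no ovary was sampled. Esr2, the oestrogen receptor beta gene, stood at 196, 129 and 154 normalized counts in Arid4bSCKO and 293, 271 and 327 in Control, a difference of -0.91 log2 (95% interval -1.44 to -0.38, adjusted p 0.00603 with limma). Amhr2, the receptor for anti-Müllerian hormone, differed by -0.57 (adjusted p 0.0044), and Inhba, an activin subunit, by -0.40 (adjusted p 0.0157). Without the trend and robust fitting, the 25 genes held no call in either direction, Lgr5 included (adjusted p 0.0575).

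Of 14 genes of oestrogen synthesis and response, which share Esr2 and Hsd17b1 with the granulosa list, 4 passed the moderated test, all lower in Arid4bSCKO, and the median was -0.34 log2. Over the 12 with whole reads, the 4 became 2 without any 1 of the Control libraries, and 1 of 14 passed without the trend and robust fitting. Greb1, a target of oestrogen receptors, differed by -1.12 (adjusted p 3e-04 with limma) and was called in all 13 alternatives. Hsd17b1, which converts oestrone to oestradiol, differed by -1.94 (adjusted p 0.0419), a call lost in 6 of 13 alternatives, with adjusted p from 1.86e-07 to 0.116. The 4 calls are 28.6% of this list, beside 13.8% of all genes tested. Cyp19a1 itself was not called.

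Of 14 genes listed for Sertoli fate or products, 5 passed the test, all lower in Arid4bSCKO, and 9 did not pass. The median was -0.51 log2. The 5 are 35.7% of the list, beside 13.8% of all genes tested. Of the 11 with whole reads, 4 passed with all libraries and 2 without mutant library C or any 1 of the Control libraries, and 0 of 14 passed without the trend and robust fitting. Nr5a1, which drives steroid and supporting cell genes, differed by -0.53 (adjusted p 0.00339 with limma) and Dmrt1, which keeps Sertoli cells from turning into granulosa-like cells after birth, by -0.72 (adjusted p 0.0142). Dhh, a signal from Sertoli to Leydig cells, differed by -0.86 (adjusted p 0.0276), a call lost in 6 of 13 alternatives. Sox9, the Sertoli fate gene that FOXL2 represses, differed by 0.15 and was not called. Over those 11, the Sertoli genes summed to 20006 to 27971 normalized counts in Arid4bSCKO and to 33095 to 33927 in Control, without overlap. Of single genes with whole reads, 34.5% had groups without overlap. The sum leaves out Amh, Gata4 and Aard, whose Control levels lie above 13, where reads were not solved. Amh had a Control level of 14.25 log2. It differed by -1.62 (95% interval -3.12 to -0.12, moderated adjusted p 0.111 with limma) and was not called. The part of the Sertoli gene differences in the values of Cyp19a1 and of the granulosa list was not tested.

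**Figure D4:**
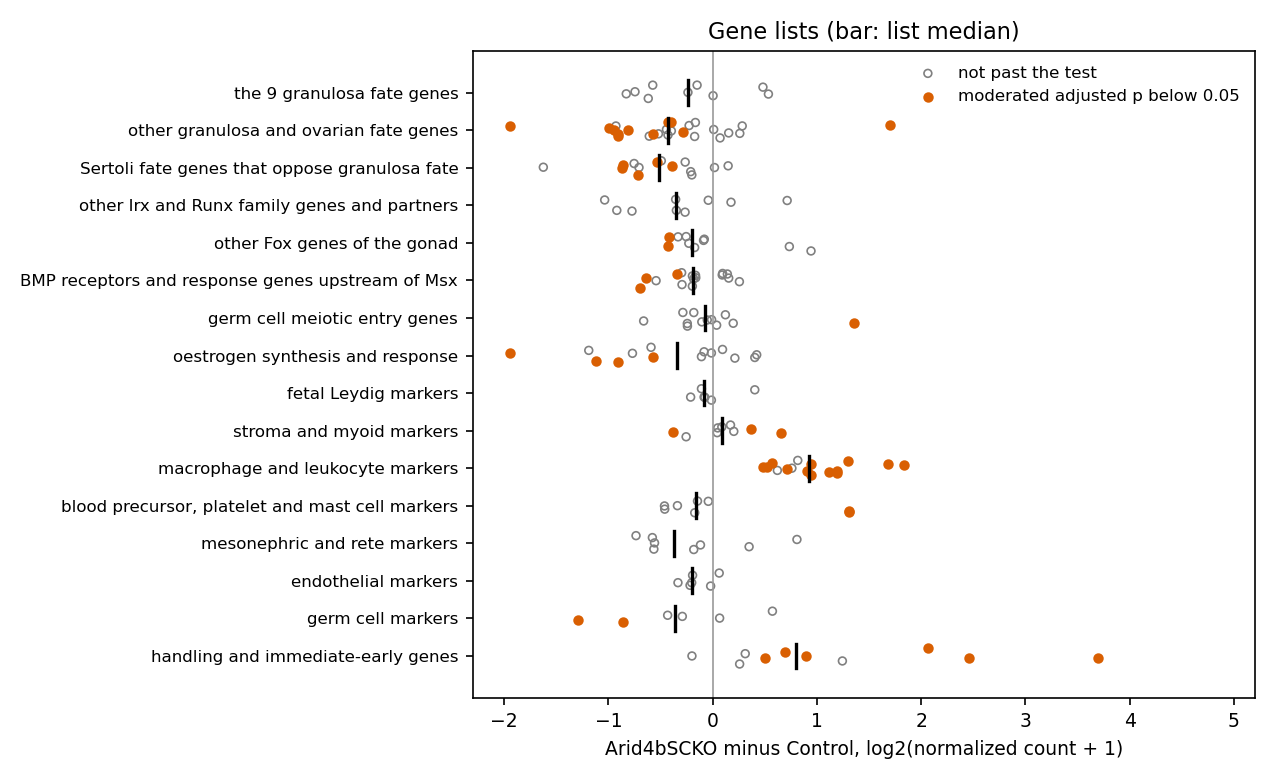
Differences of single genes, Arid4bSCKO less Control on the log2 scale, for each gene list, with the median of the list marked. The 9 genes have a median of -0.24, the other granulosa and ovarian genes of -0.43 and the Sertoli genes of -0.51, while the macrophage markers have a median of 0.93.

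A list of 10 other Fox genes of the gonad, which shares Foxo1 and Foxo3 with the list of 25, held 2 calls, both lower, Foxo1 (-0.43 log2) and Foxm1 (-0.42, adjusted p 0.0375 with limma), a median of -0.20. Both calls were lost in several alternatives, 5 of 13 for Foxo1 and 8 of 13 for Foxm1. The 9 other Irx and Runx genes and partners held none, with a median of -0.35. Germ cell markers, 6 in number, held 2 lower calls, Dppa4 (-0.86) and Dnmt3l (-1.29), each lost in 5 of 13 alternatives, and none was left without mutant library C, Control A or Control B. The fetal Leydig (6 genes), mesonephric and rete (8) and endothelial (6) markers held none, with medians of -0.08, -0.37 and -0.20. Stroma and myoid markers, 9 in number, held 2 higher calls, Dpt (0.65) and Lum (0.37), and 1 lower, Nr2f2 (-0.38), with Lum lost in 5 and Nr2f2 in 6 of 13 alternatives. Of 10 handling and immediate-early genes, 6 were called higher, Atf3 by 3.70 and Junb by 2.46 among them, and 0 lower. The count was 4 without Control A and 2 without the trend and robust fitting. Their summed level was 7854 to 11283 normalized counts in Arid4bSCKO against 5961 to 6786 in Control. Their part in the other differences was not tested. The calls were 20% of the Fox genes and 60% of the handling genes. They were 33.3% of both the germ cell and the stroma markers, beside 13.8% of all genes tested. No gene of these 15 lists passed the authors' FDR.

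The neighbours of the 9 genes on the chromosome were read as well. Within 1 Mb, 15 distinct genes at a mean level of at least 1 lay nearest to a member on either side, and 1 of them was called higher and 1 lower, 2 of 15 beside 13.8% of all genes tested. Gldn, which encodes gliomedin, a matrix protein known from nodes of myelinated nerves, starts 18.3 kb from Cyp19a1 and runs the other way (chr9:54286486-54341777, plus strand). Gldn stood at 248, 124 and 124 normalized counts in Arid4bSCKO and at 646, 669 and 474 in Control. Every mutant library was far below every Control library, though 34.5% of genes with whole reads had groups without overlap. The level was 26.6% of Control, a difference of -1.91 log2 (95% interval -2.93 to -0.89, authors' FDR 0.120, moderated adjusted p 0.0031 with limma). The call was lost in 1 of 13 alternatives, without the trend and robust fitting (0.0594). Stx18, a membrane fusion gene 215 kb from Msx1, was the higher one, by 0.49 log2 (0.07 to 0.91, adjusted p 0.0272), a call lost in 4 of 13, among them without mutant library C (0.0894), Control A (0.116) or Control C (0.0537).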

How the data were processed

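The authors deposited 1 table of their comparison, with no column for a single library. Per the file headers, its columns are the log2(normalized count + 1) mean of each group, a log2 fold change of medians, an unadjusted p-value and an FDR. Libraries were stranded, per the labels' protocols, and STAR 2.4 and mm10 are named in the submitters' processing notes. How reads were counted, whether by strand, and how they were normalized is not given in the sources used here.

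Whole reads per library were solved from the deposited means, fold change and p-value, and kept where 1 solution also gave the p-value. The moderated test used standard errors that the authors' p-values imply at 4 degrees of freedom, shrunk with squeezeVar of limma 3.58.1 (trend, robust) in R 4.3.3, over 19095 genes at a mean level of at least 1. Rows with a filled-in value (529) were left out. Both procedures were tested on simulated data. At levels from 2 to 6, the moderated test recovered 18% of genes given a difference of 1 log2 and 70% at 2 log2. At levels of 6 or more it recovered 88% and 100%, with 50 genes in each case. Named were all 9 members, the 3 genes of smallest deposited p-value per list, the chromosomal neighbours and the family genes. A few further genes were named after their values were seen. Members and lists were chosen with earlier results of these data known. Alternatives changed the minimum level, the centring, the variance model and the libraries used. Those that left out a library, kept only genes with solved reads or took ratios of means were chosen after seeing the data. Transcript lengths and upstream windows came from GENCODE and RefSeq, and windows matched 7 of the 9 members. Folds on this scale understate changes of genes with few reads.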

Additional observations from a re-analysis of the deposited data

How the results depend on the processing

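No member was called by the moderated test in any of its 13 alternatives, or by the authors' p-values adjusted over the genes at the minimum level. Irx2, Irx3, Cyp19a1, Runx1, Msx1 and Msx2 kept their direction in all alternatives run. With 1 library left out at a time, the differences ranged from -0.81 to -0.37 for Irx2, -1.06 to -0.19 for Irx3, -0.95 to -0.70 for Cyp19a1, 0.23 to 0.68 for Runx1, 0.05 to 1.04 for Msx1 and -1.11 to -0.35 for Msx2. Directions turned for Foxl2 (0.60 as the ratio of medians, -0.68 to 0.47 with 1 library left out), Irx1 (0.026 with centring on level, -0.38 to 0.015) and Irx5 (-1.27 as the ratio of medians, -0.22 as a ratio of mean normalized counts, -0.93 to 0.59). They also turned with 1 library left out for Foxl2os (-0.36 to 0.61), Fst (-0.11 to 0.18), Msx3 (-0.26 to 0.54) and Wnt4 (-0.048 to 0.22), and the cause was not tested.

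The number of genes past the moderated test, 2641 with 53.3% higher, was 237 without the trend and robust fitting, and 2 from the deposited p-values readjusted. Libraries could be left out only for the 16588 genes with solved reads, of which 2569 passed with all libraries and 1012 to 3121 with 1 left out (1502 without mutant library C, and 1012, 1241 and 1445 without Control A, B and C). The share of higher calls was 65.6% with centring on transcript length and 63.5% without Control A. Of the 25 granulosa genes, 21 had solved reads, and their 7 lower calls became 3 without Control A or without Control C. No paired analysis was possible because the deposited columns are group means and the solved libraries carry no replicate number. For genes with few reads, counting error adds to the spread between pools, and no count test was run.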
